A study of Mus musculus with 22 samples.

Results

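The 9 heat shock chaperone genes described here are Hsp90aa1, Hsp90ab1, Hspa8, Hspa4, Hsph1, Dnaja1, Dnajb1, Hspd1 and Hspe1. They were taken by symbol from tables of 29848 gene symbols, and all 9 were listed. RNA came from the hippocampal CA1 field of double transgenic C57BL/6 mice carrying Camk2a-tTA and tetO-EGFP-L10a, in which a Camk2a promoter drives a transactivator that switches on a GFP-tagged ribosomal protein, so that antibodies to GFP pull down ribosomes mostly of excitatory neurons. The dissections were fear conditioned dendrite, home cage dendrite, fear conditioned soma and home cage soma, and each of these 4 groups had 2 immunoprecipitate libraries. Supernatants, the RNA left after the pulldown, came from 1 fear conditioned dendrite, 1 home cage dendrite and 1 fear conditioned soma dissection. All groups carry both transgenes, and for age, sex, mice per library and the time from training to dissection nothing is stated in the labels. Each of the 11 libraries was sequenced in paired-end and again in single-end mode (22 samples), and both runs count as 1 replicate. Whether libraries of a group stem from separate mice is not stated, so the p-values cover the spread between these libraries, which may be technical.

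Heat shock chaperones bind unfolded or partly folded proteins and, through cycles of ATP binding and hydrolysis, help them fold, keep them from clumping or pass them on for degradation. The HSP70 protein takes its substrate from a J-domain partner, gives up ADP with the help of a nucleotide exchange factor of the HSP110 family, and can hand the substrate to HSP90. In neurons the constitutive HSC70 is also known for uncoating clathrin-coated vesicles, and HSP90 for keeping kinases and steroid receptors in an active form. The mitochondrial pair HSP60 and HSP10 forms a separate folding chamber. Heat shock factor 1 turns on many of these genes by binding repeats of the bases GAA and its complement TTC in alternating directions.

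Promoter sequence was looked up to show what part of this control the members share. The RefSeq promoter table (build GRCm38.p6, 250 bases before to 50 after each start) held 11 promoters of 6 members, namely Hspa4, Hsph1, Dnaja1, Dnajb1, Hspd1 and Hspe1. The 8-letter motifs GAANNTTC and TTCNNGAA, which read the same on both strands, join a pair of units, and the 13-letter motifs GAANNTTCNNGAA and TTCNNGAANNTTC, each the reverse complement of the other, join 3 and overlap with the 8-letter ones. A 13-letter motif stood in a promoter of 3 of the 6 members, Hsph1, Hspd1 and Hspe1, against 0.662% of all 27025 genes with a listed promoter. Dnaja1 also held an 8-letter motif, which 17.0% of these genes had. The stretches below carry these motifs in capitals, 5′ to 3′ on the strand of the gene; those of Hspd1 and Hspe1 are the same DNA read from either strand, since these genes lie head to head.
Hsph1 (GRCm38.p6 chr5:149636287-149636389, minus strand): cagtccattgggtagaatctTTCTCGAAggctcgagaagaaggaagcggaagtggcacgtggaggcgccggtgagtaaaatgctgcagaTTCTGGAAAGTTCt
Dnaja1 (GRCm38.p6 chr4:40722324-40722371, plus strand): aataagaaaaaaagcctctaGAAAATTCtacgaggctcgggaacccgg
Hspd1 (GRCm38.p6 chr1:55088039-55088096, minus strand): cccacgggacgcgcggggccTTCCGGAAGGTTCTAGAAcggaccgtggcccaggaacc
Hspe1 (GRCm38.p6 chr1:55088039-55088096, plus strand): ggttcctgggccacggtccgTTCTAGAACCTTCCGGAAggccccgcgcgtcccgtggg
These letters are a description of the window and do not show that a factor binds there.

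The deposited values are FPKM, fragment numbers set against the length of the gene and the depth of the library. The values below are of the coding part, which in the authors' mm9 annotation joins the coding sequence to the 5′ UTR and to the first bases of the 3′ UTR. Scaled FPKM were divided by a factor per library (median ratio to the geometric mean over genes above 0.001 FPKM in every library). Differences are in log2(scaled FPKM + 1), so the change of low genes is understated. From the spacing of low values the paired-end runs held about 5.67 to 35.7 M fragments (M, mega) and the single-end runs 0.522 to 10.6 M reads. The libraries differed in content. Rpsa took 74.0% of the summed FPKM of home cage soma immunoprecipitate 2 and Mir135b 26.9% of fear conditioned dendrite immunoprecipitate 1. Of 8 CA1 pyramidal neuron markers, 5 to 8 were above 0 in fear conditioned dendrite and 2 to 3 in home cage dendrite immunoprecipitates. Fitted with limma, 3057 genes had a mean scaled FPKM of at least 1 and were tested. In simulated data of that size a fear conditioning difference of 4 on the log2 scale was recovered at an adjusted p under 0.05 for 0% of changed genes, and one of 6 for 45%. The 200 changed genes were drawn only from those of higher mean level, with normal noise. Low members with values of 0 were thus not covered.

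Among the 9 members the cytosolic pair Hsp90ab1 and Hspa8 made up most of the summed level on tagged ribosomes, and the other members were lower. FPKM is a level per length, so members can be ordered. Over the 8 immunoprecipitates, Hsp90ab1, the constitutive HSP90, averaged 98.1 ± 97.8 scaled FPKM (SD, n = 8). Each SD here spans the libraries of all groups, so differences between groups add to it. Hspa8, which encodes HSC70, averaged 57.0 ± 31.2. Hsp90aa1, the inducible HSP90, averaged 10.4 ± 8.95, and Hspd1, which encodes HSP60, 9.43 ± 14.2. Next came Hspa4, an HSP110-family exchange factor, with 4.32 ± 3.95, the J-domain partner Dnaja1 with 4.02 ± 7.49, and Hsph1, which encodes HSP105, with 2.97 ± 5.54. Hspe1, the HSP10 lid of the HSP60 chamber, averaged 1.03 ± 1.503 and Dnajb1, the heat-inducible HSP40, 0.218 ± 0.427. Hspa8 was above Hsp90aa1 in all 8 libraries. In every other pair of neighbours the member named first was the higher one in only 4 to 6 of the 8 libraries, so their order is not larger than the spread. Hsp90ab1 and Hspa8 together made up 66.8 to 98.9% of the summed scaled FPKM of the members in each immunoprecipitate, and 80.1 to 86.8% in the supernatants. Among the strongly inducible genes outside the group, Hspa1a and Hspa1b, which encode HSP70, reached at most 0.172 and 0.190 scaled FPKM in any immunoprecipitate.

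**Figure D1:**
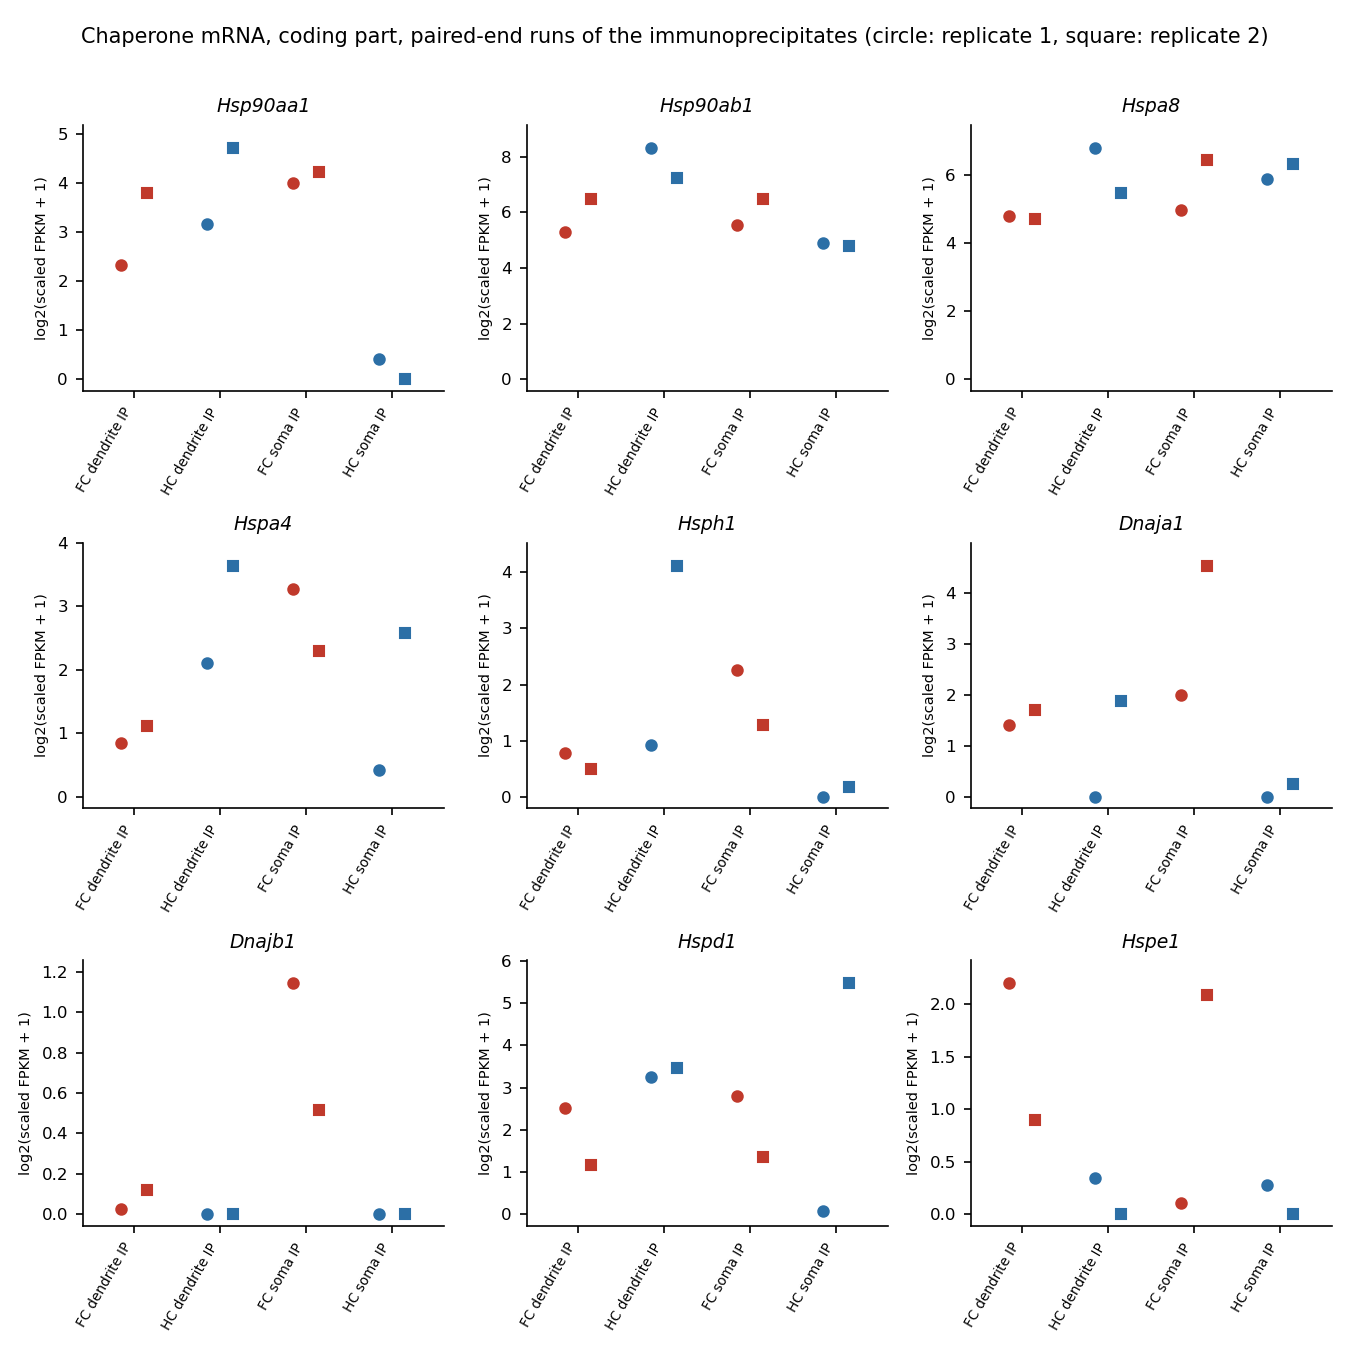
Level of each chaperone in the 8 immunoprecipitates. The vertical axis is log2(scaled FPKM + 1) of the coding part in the paired-end run, with its own range in each panel and libraries scaled over the 8 immunoprecipitates; each symbol is 1 library (FC, fear conditioned; HC, home cage; IP, immunoprecipitate), and Hsp90ab1 stands lower in both fear conditioned than in both home cage dendrite libraries while in soma the order is turned round.

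Fear conditioning was compared with the home cage first in dendrites. No member passed the test, and the adjusted p-values of limma (Benjamini-Hochberg over 3057 genes) lay at 0.963 or above. In all, 0% of the genes tested passed there at an adjusted p under 0.05 and 3.34% had an unadjusted p under 0.05, with no member among them. By sign alone, 2 of the 8 tested members were positive and 6 negative, with a median log2 difference of -1.44. That median came to -0.70 without home cage dendrite immunoprecipitate 2, to -0.76 as deposited, and to -0.50 in the single-end table, where 3 members were positive and 5 negative. Over all genes tested, 58.1% were positive and 39% negative, and the median was 0.10. In 5 tested members both fear conditioned libraries lay below both home cage libraries, against 8.21% of all genes tested. This count depends on the scaling. As deposited, Hspa8, Hsph1 and Hspd1 overlapped, while Hsp90ab1 and Hspa4 did not. In 1 tested member, Hspe1, both fear conditioned libraries lay above both home cage libraries, against 25.1%. The minimum level of 1 favoured that order for Hspe1. In the single-end run of the same libraries 2 of those 5 members, Hsp90ab1 and Hspa4, still did not overlap, as did 31.1% of all genes tested of which this was true. Hspe1 stayed higher there too, as did 45.5% of all genes tested that were higher in the paired-end run.

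Hsp90ab1 had 38.2 and 88.9 scaled FPKM in the fear conditioned dendrite immunoprecipitates 1 and 2, against 317 and 150 in the home cage dendrite immunoprecipitates 1 and 2. The groups did not overlap, but the log2 difference of -1.88 (SE 1.40, 95% interval -4.89 to 1.12) did not pass (limma adjusted p = 0.963). Hspa8 had 26.9 and 24.8 scaled FPKM in fear conditioned dendrites, against 109 and 43.4 in home cage dendrites. Here too the groups did not overlap in the paired-end run once scaled, with a log2 difference of -1.38 (SE 1.46). They did in the single-end run, where Hspa8 had 33.7 and 42.2 in fear conditioned dendrites, against 239 and 30.2 in home cage dendrites. Hsp90aa1 had 4.07 and 12.8 in fear conditioned dendrites, against 8.003 and 25.3 in home cage dendrites. Its groups overlapped, and the log2 difference of -0.88 (SE 1.46) ranged from -1.69 to -0.0889 when 1 library was left out.

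The exchange factors of the HSP110 family gave values of the same sign. Hspa4 had 0.793 and 1.16 scaled FPKM in fear conditioned dendrites, against 3.30 and 11.5 in home cage dendrites, a log2 difference of -1.90 (SE 1.38). Hsph1 had 0.722 and 0.416 in fear conditioned dendrites, against 0.896 and 16.4 in home cage dendrites, a log2 difference of -1.88 (SE 1.27). Only 1 home cage library carried the difference of Hsph1: without home cage dendrite immunoprecipitate 2 it came to -0.28. For the J-domain partners no such order was seen. Dnaja1 had 1.65 and 2.27 in fear conditioned dendrites, against 0 and 2.68 in home cage dendrites, a log2 difference of 0.62 (SE 1.30). Dnajb1 had 0.0198 and 0.0862 in fear conditioned dendrites and 0 in home cage dendrites 1 and 2; its mean was below the minimum of 1, so it was not tested.

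The mitochondrial pair went different ways in dendrites. Hspd1 had 4.75 and 1.26 scaled FPKM in fear conditioned dendrites, against 8.47 and 10.01 in home cage dendrites. The scaled values of Hspd1 did not overlap, and the log2 difference was -1.5 (SE 1.75). Its groups overlapped in the single-end run, with 11.7 and 2.42 in fear conditioned dendrites, against 28.6 and 1.92 in home cage dendrites. Hspe1 had 3.595 and 0.859 in fear conditioned dendrites, against 0.274 and 0 in home cage dendrites, also without overlap and with a log2 difference of 1.37 (SE 1.13). Its mean of 1.03 over the 8 immunoprecipitates reached the minimum of 1 only through fear conditioned libraries. A positive sign of Hspe1 was thus favoured by that minimum. The value of 0.274 rests on about 1.3 fragments by the estimated depth, and 0 in home cage dendrite 2 on none. Neither member passed.

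In soma more members stood higher after fear conditioning, but none passed the test there either. Of the 8 tested, 6 were positive and 2 negative with a median log2 difference of 1.23. Among all genes 64.6% were positive, 34.6% negative and the median was 0.52, so a positive sign was common in this comparison. Without scaling between libraries all 8 members were positive, with a median of 2.24 against 1.21 over all genes. In 4 tested members both fear conditioned libraries lay above both home cage libraries, against 34.3% of all genes, and in none below, against 7.56%. Hsp90aa1 and Dnaja1 had an unadjusted p under 0.05, as did 8.18% of all genes; at an adjusted p under 0.05 it was 0% of them. That count of 0 genes moved when 1 of 3 soma libraries was left out: 170 genes passed without fear conditioned soma immunoprecipitate 1 and 154 without fear conditioned soma 2, all higher, and 90 without home cage soma 2, of which 89 were lower. No member was among them, the lone library left in such a group was taken to vary like the other groups, and the count stayed at 0 without home cage soma 1 or any 1 dendrite library.

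Hsp90aa1 had 15.1 and 17.8 scaled FPKM in the fear conditioned soma immunoprecipitates 1 and 2, against 0.326 and 0 in the home cage soma immunoprecipitates 1 and 2. The groups were far apart in the paired-end run, with a log2 difference of 3.92 (SE 1.46, 95% interval 0.76 to 7.07, limma unadjusted p = 0.0187, adjusted p = 0.551). The single-end run of the same libraries did not separate them: Hsp90aa1 had 4.84 and 49.2 scaled FPKM in fear conditioned soma, against 0 and 14.2 in home cage soma. The 0 of home cage soma 2 in the paired-end run therefore stands beside about 43 reads in its single-end run. In the single-end table the log2 difference was 2.13 (SE 1.79, adjusted p = 0.650). Dnaja1, by contrast, gave the same picture in both runs. It had 3.02 and 22.3 in fear conditioned soma, against 0 and 0.198 in home cage soma, a log2 difference of 3.15 (SE 1.30, 95% interval 0.35 to 5.94, limma unadjusted p = 0.0302, adjusted p = 0.551). In the single-end run it had 4.25 and 14.8 in fear conditioned soma and was listed at 0 in both home cage soma libraries, with a log2 difference of 3.19 (SE 1.23, adjusted p = 0.611).

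Other members in soma had smaller differences or overlapping groups. Hsp90ab1 had 45.7 and 89.3 scaled FPKM in fear conditioned soma, against 29.2 and 26.5 in home cage soma, a log2 difference of 1.17 (SE 1.40) without overlap. Hspa8 had 30.3 and 85.9 in fear conditioned soma, against 57.4 and 78.4 in home cage soma, a log2 difference of -0.38 (SE 1.46) with overlap. Hspa4 overlapped as well, with 8.63 and 3.91 in fear conditioned soma, against 0.341 and 4.97 in home cage soma (log2 difference 1.28, SE 1.38, and 0.15 to 2.48 with 1 library left out). Hsph1 had 3.79 and 1.44 in fear conditioned soma, against 0 and 0.124 in home cage soma (log2 difference 1.69, SE 1.27), and the home cage values rest on no more than about 1.4 fragments. Dnajb1 had 1.21 and 0.430 in fear conditioned soma and was listed at 0 in both home cage soma libraries. Its highest coding level in the paired-end run was thus in soma after training, where it rests on about 38 and 28 fragments. In the single-end run Dnajb1 was listed at 0 in fear conditioned soma 1 and at 0.835 in fear conditioned soma 2, so the groups overlapped.

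Both mitochondrial members hung on single libraries in soma. Hspd1 had 5.94 and 1.54 scaled FPKM in fear conditioned soma, against 0.0629 and 43.4 in home cage soma (log2 difference -0.71, SE 1.75). Home cage soma 2, the library in which Rpsa took most of the FPKM, decided that sign: without it the log2 difference was 2.14. In the single-end run of that library Hspd1 stood at 3.31. Hspe1 had 0.0760 and 3.25 in fear conditioned soma, against 0.212 and 0 in home cage soma (log2 difference 0.96, SE 1.13). Its sign was favoured by the minimum level here too.

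Whether a fear conditioning effect differs between dendrite and soma was tested as the difference of both effects. It was negative, that is, lower in dendrite than in soma, for 7 of the 8 tested members with a median of -2.79, against 58.2% of all genes and a median of -0.60, and positive for 1, against 41.8%. The members' median came to -1.74 without home cage dendrite immunoprecipitate 2, to -1.82 in the single-end table and to -1.47 with a pseudocount of 5. None passed, and 0% of all genes did. The unadjusted p was under 0.05 for Hsp90aa1 and for 3.57% of all genes. Hsp90aa1 had a difference of -4.80 (SE 2.07, 95% interval -9.26 to -0.33, limma unadjusted p = 0.0371, adjusted p = 0.725), and -2.63 (SE 2.54) in the single-end table. Hsph1 followed with -3.57 (SE 1.79), Hspa4 with -3.18 (SE 1.95), Hsp90ab1 with -3.06 (SE 1.97) and Dnaja1 with -2.53 (SE 1.83). Hspa8 with -0.997 (SE 2.07) and Hspd1 with -0.79 (SE 2.48) were nearer to 0, and Hspe1 was the positive one with 0.41 (SE 1.59).

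**Figure D2:**
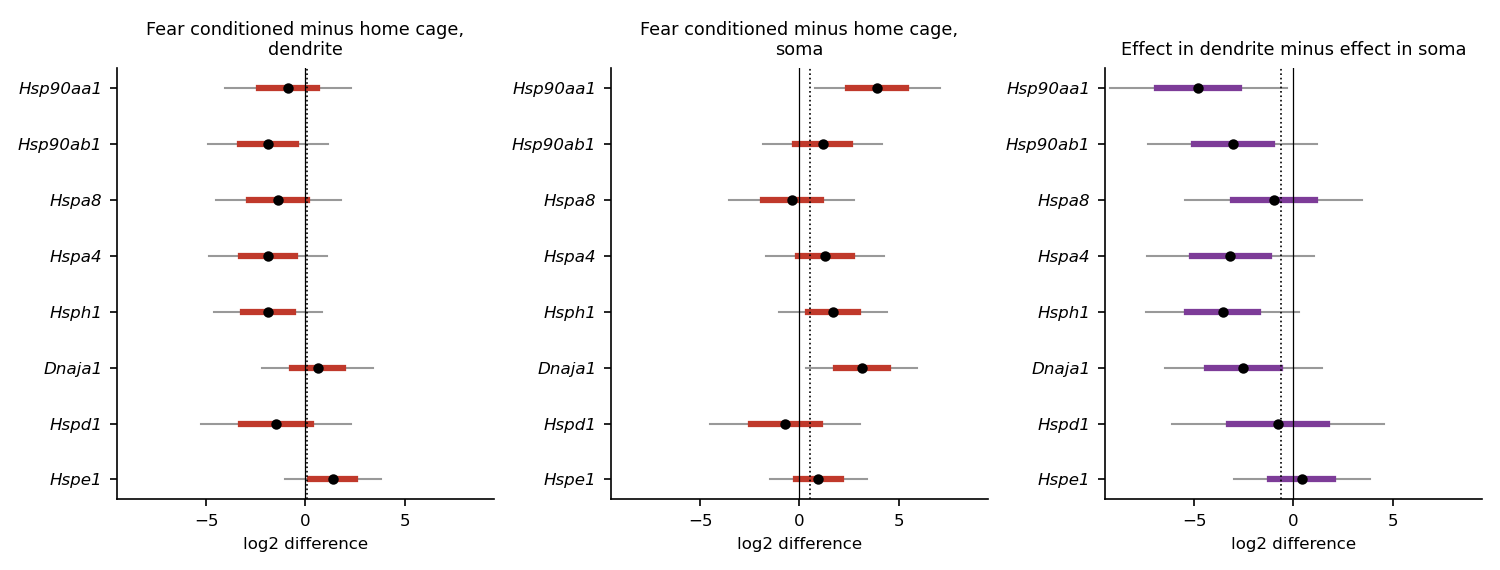
Fear conditioning effects on 8 chaperones. The horizontal axis is the difference in log2(scaled FPKM + 1), fear conditioned minus home cage in dendrite (left) and soma (middle), and the effect in dendrite minus that in soma (right); points are estimates, thick bars 1 SE to each side, thin lines 95% intervals, and the dotted line is the median of all 3057 genes. Intervals leave out 0 for Hsp90aa1 and Dnaja1 in soma and for Hsp90aa1 on the right, before adjustment.

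Members were also listed at 0 more often in the home cage, as were genes in general. In the fear conditioned immunoprecipitates none of the 36 member values was 0, and in the home cage immunoprecipitates 10 of 36 were, in Hsp90aa1, Hsph1, Dnaja1, Dnajb1 and Hspe1. Over all genes tested 14.6% of the fear conditioned and 43.0% of the home cage values were 0. Single-end, 3 of 36 fear conditioned member values, all of Dnajb1, and 12 of 36 home cage ones were 0. Of the 8 tested members, 4 were above 0 in all 4 fear conditioned libraries and at 0 in at least 1 home cage library, against 40.8% of all genes tested, a share near that of the members. None showed the opposite pattern, as 1.96% of all genes did. The fear conditioned immunoprecipitates were also deeper, at 18.6 to 30.0 M fragments against 5.67 to 17.7 M fragments, and listed 6147 to 12205 genes above 0, against 3220 to 5006. The part of depth in the members' zeros was not tested.

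Dendrites were then set against soma over both behaviours, 4 libraries against 4. All members overlapped between dendrite and soma, and none passed; of all genes, 0% passed, 4.94% had an unadjusted p under 0.05 with no member among them, 1.64% were higher and 1.86% lower in every dendrite library. Signs were mixed, with 5 of 8 positive, 3 negative and a median of 0.21, against 41.4% positive, 58.6% negative and a median of -0.35 over all genes. As deposited, without scaling, 7 of 8 members were positive with a median of 0.67, against 0.12 over all genes. The HSP90 genes had the largest differences, which lay in the home cage libraries: in the fear conditioned ones given above, Hsp90ab1 overlapped between dendrite and soma and Hsp90aa1 was lower in both dendrite than in both soma libraries. Hsp90ab1 averaged 149 ± 121 scaled FPKM in dendrite and 47.7 ± 29.0 in soma immunoprecipitates (SD, n = 4 each), a log2 difference of 1.40 (SE 0.99, limma adjusted p = 0.655). Its two-sided exact permutation p was 0.143, the lowest of the 9 members, where 4 against 4 can reach 0.0286. Dendrite and soma libraries were taken as unpaired in both tests, and whether any share mice is not stated. Hsp90aa1 averaged 12.5 ± 9.21 in dendrite and 8.32 ± 9.48 in soma (SD, n = 4 each), a log2 difference of 1.34 (SE 1.04). For Hspa8 the averages were 50.9 ± 39.4 in dendrite and 63.0 ± 24.9 in soma, a log2 difference of -0.46 (SE 1.03). The remaining tested members lay between -0.45 for Dnaja1 and 0.65 for Hsph1.

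RNA of astrocyte markers also differed in sum between these dissections. The 10 astrocyte markers summed to 90.6 to 233 scaled FPKM in the dendrite immunoprecipitates, against 2.57 to 60.2 in the soma immunoprecipitates, with 6 to 10 markers above 0 in dendrite and 5 to 9 in soma. Gfap reached at most 5.21 and Aqp4 2.09 in any immunoprecipitate, and in the home cage Gfap was lower in dendrite (0.123 and 0.0592) than in soma (0.298 and 0.227). Camk2a, which marks the targeted neurons, stood at 66.0 to 550 in dendrite and 10.9 to 55.2 in soma immunoprecipitates. Other markers of these neurons went the other way, such as Neurod6, which reached at most 0.812 in dendrite and stood at 0.513 to 52.3 in soma. The astrocytes' part in the members' levels was not tested, and in such bulk samples fewer cells of a type cannot be told apart from less RNA per cell.

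Immunoprecipitates were compared with supernatants to see which members stood higher on tagged ribosomes than in the remaining RNA. For these comparisons all 11 libraries were scaled together, so that levels differ slightly from those above, 3041 genes were tested, and behaviour was a covariate. Every supernatant carries replicate number 2 in the labels. Fractions of equal number were taken as unpaired, and whether they share a dissection is not stated. No member passed in dendrite or soma. In dendrite 0.0658% of all genes passed, both of them lower (0 genes without home cage dendrite supernatant 2), and 5.06% had an unadjusted p under 0.05, with no member among them. Of 8 members 6 were positive and 2 negative with a median of 1.02, against 41.6% positive, 58.4% negative and a median of -0.14 over all genes. In Hsp90aa1, Hsp90ab1 and Hspa4 all 4 dendrite immunoprecipitates lay above both dendrite supernatants, against 3.98% of all genes, and in no member below both, against 18.9%. In the single-end run this held for Hsp90aa1 and Hspa4 but not for Hsp90ab1, which had 35.9 in fear conditioned dendrite immunoprecipitate 2, against 46.4 in the fear conditioned dendrite supernatant.

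Hsp90ab1 had 39.1 and 86.1 scaled FPKM in the fear conditioned and 356 and 135 in the home cage dendrite immunoprecipitates, against 17.9 in the fear conditioned and 23.9 in the home cage dendrite supernatant. The log2 difference was 2.39 (SE 1.20, 95% interval -0.17 to 4.96, limma adjusted p = 0.976). Hsp90aa1 had 4.16 and 12.4 in fear conditioned and 8.995 and 22.7 in home cage dendrite immunoprecipitates, against 1.63 and 3.26 in the fear conditioned and home cage supernatants (log2 difference 1.76, SE 1.32). Hspa4 had 0.810 and 1.13 in fear conditioned and 3.71 and 10.3 in home cage dendrite immunoprecipitates, against 0.621 and 0.505 in those supernatants (log2 difference 1.28, SE 1.08). Most of the spread of these 3 members lay within the immunoprecipitates. Hspd1 had a log2 difference of 1.74 (SE 1.35) with overlap, since fear conditioned dendrite immunoprecipitate 2 at 1.22 lay below the home cage supernatant at 1.58. Within a behaviour, immunoprecipitate 2 of Hspd1 lay above the supernatant. It had 1.22 against 0.279 after fear conditioning and 8.98 against 1.58 in the home cage.

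Hspa8 overlapped between the fractions in dendrite in the paired-end run. It had 24.0 to 122 scaled FPKM in 4 immunoprecipitates, against 37.7 and 28.6 in the fear conditioned and home cage supernatants. The log2 difference was 0.35 (SE 1.17, 95% interval -2.16 to 2.86). In the single-end run all 4 immunoprecipitates lay above both supernatants. Hspa8 there had 37.2 and 46.3 in fear conditioned and 270 and 32.3 in home cage dendrite immunoprecipitates. The fear conditioned and home cage supernatants had 31.4 and 23.1. In the paired-end run the remaining members were as follows. Hsph1 had a log2 difference of 0.76 (SE 1.08). Negative differences were seen for Dnaja1 at -0.58 (SE 1.08) and Hspe1 at -1.14 (SE 0.84). Hspe1 had 3.67 and 0.832 in fear conditioned and 0.308 and 0 in home cage dendrite immunoprecipitates, against 3.05 and 3.03 in both supernatants. Only 1 of 4 immunoprecipitates thus exceeded the supernatants for Hspe1.

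In soma only 1 supernatant was sequenced, and it was taken to vary like the other groups. The signs of the members depended on the table and scaling: as deposited 7 were positive and 1 negative (median 0.70), and with single-end values 1 was positive and 7 negative (median -0.58). With scaling they were 4 positive and 4 negative with a median of 0.11, against 57.1% positive, 42.9% negative and a median of 0.18 over all genes, of which 0% passed and 1.02% had an unadjusted p under 0.05. Hsph1 had 3.32 and 1.14 scaled FPKM in fear conditioned and 0 and 0.154 in home cage soma immunoprecipitates, against 3.74 in the fear conditioned soma supernatant. All 4 were lower, as in 17.2% of all genes, and no member had all 4 higher, as 5.39% of all genes had (log2 difference -1.45, SE 1.44). Hsph1 had 10.5 in the single-end run of fear conditioned soma immunoprecipitate 2, above 9.49 in the supernatant. Hsp90ab1 had 32.7 to 70.4 in soma immunoprecipitates, against 39.5 in the supernatant, a log2 difference of -0.20 (SE 1.61). Hspa4 had the largest positive difference with 1.23 (SE 1.45). The 7 oligodendrocyte markers summed to 122 to 123 in dendrite supernatants, against 5.73 to 63.2 in dendrite immunoprecipitates, but to 11.1 in the soma supernatant, within the 1.02 to 69.2 of the soma immunoprecipitates. Their part in these differences was not tested.

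**Figure D3:**
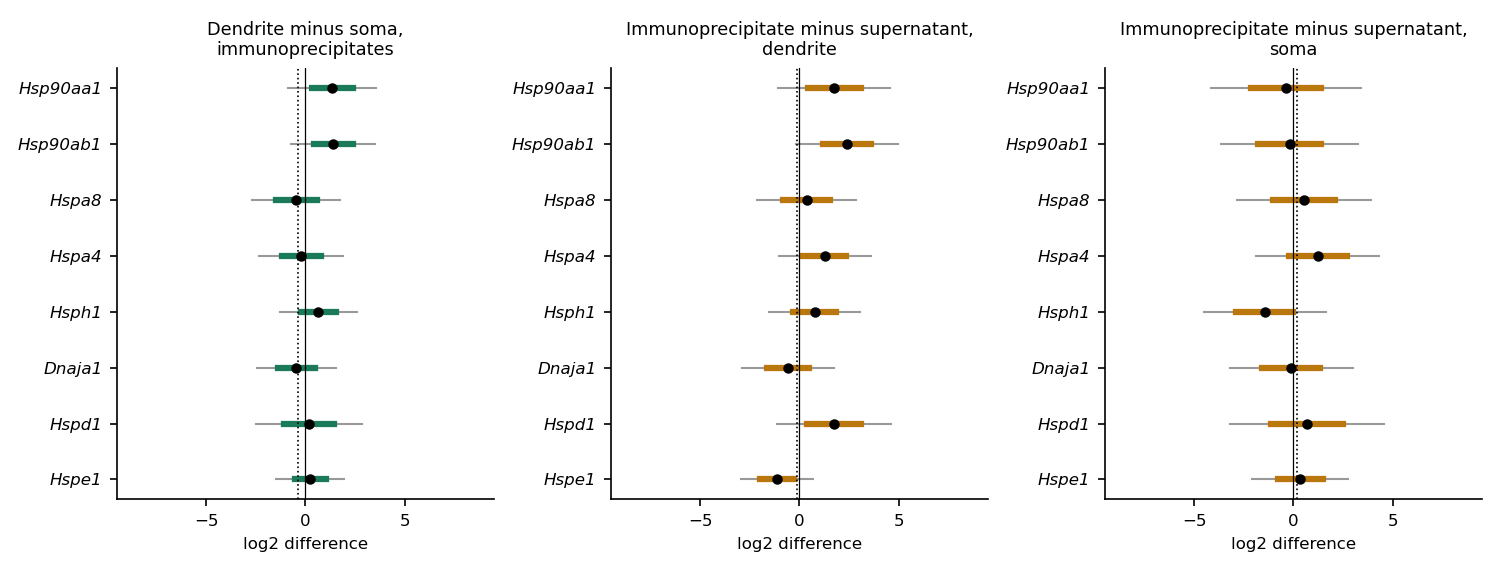
Chaperones by place and fraction. The horizontal axis is the difference in log2(scaled FPKM + 1) for dendrite minus soma immunoprecipitates (left, 4 against 4 libraries) and immunoprecipitate minus supernatant in dendrite (middle, 4 against 2) and soma (right, 4 against 1); points are estimates, thick bars 1 SE to each side, thin lines 95% intervals and the dotted line the median of all genes tested. Every interval includes 0.

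The single-end run gives a technical repeat of each library. The sign of the difference was the same in both runs for 7 of 8 members in each fear conditioning comparison and in the comparison of both effects. It was the same for 5 of 8 in dendrite against soma, 7 of 8 in immunoprecipitate against supernatant in dendrite and 5 of 8 in soma. Levels agreed best for Hspa8, whose single-end FPKM was 0.661 to 1.96 times its paired-end FPKM over 11 libraries. Hsp90ab1 ranged from 0.266 to 3.25 times, Hspd1 from 0.0795 to 11.6 times and Hspe1, in 7 libraries with both above 0, from 0.288 to 129 times. For Hsp90ab1 both orders of the fear conditioning comparisons held in the repeat. It had 76.0 and 32.7 scaled FPKM in fear conditioned dendrites, against 368 and 297 in home cage dendrites, and 117 and 187 in fear conditioned soma, against 42.1 and 41.4 in home cage soma. Hspa4 likewise had 2.39 and 3.42 in fear conditioned dendrites, against 23.8 and 40.8 in home cage dendrites. Hspa8, Hspd1 and Hsph1 overlapped there in dendrite. Hsph1 had 24.8 and 6.72 in fear conditioned dendrites, against 0.827 and 11.2 in home cage dendrites. In soma 2 of the 4 members without overlap, Hsp90ab1 and Dnaja1, kept it in the repeat, and Hsp90aa1 and Hsph1 did not, while 57.7% of such genes among all tested kept it.

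**Figure D4:**
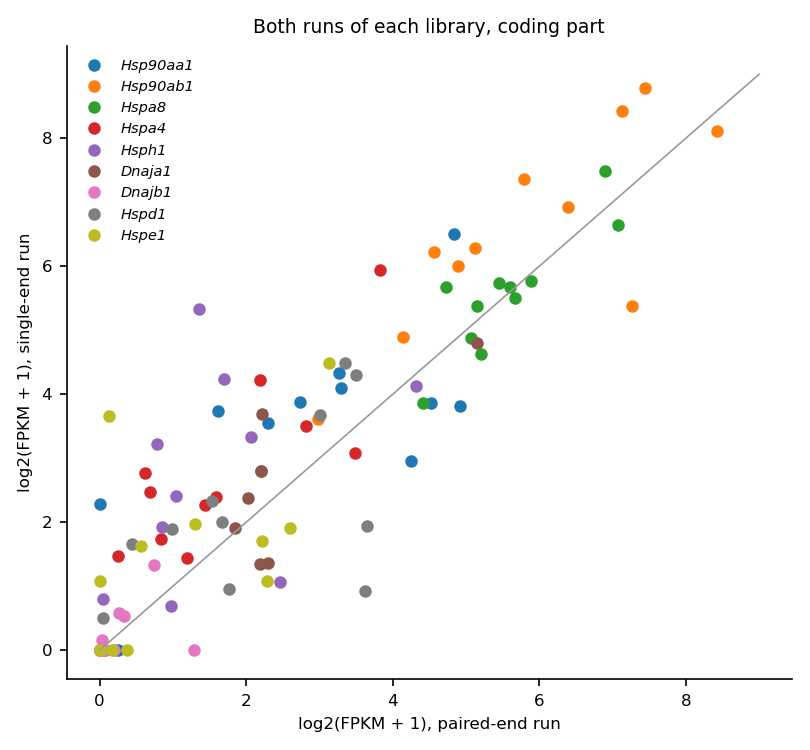
Both runs of each library. Each point is 1 chaperone in 1 of the 11 libraries, with log2(FPKM + 1) as deposited in the paired-end run on the horizontal axis, the same in the single-end run on the vertical axis, and a line where both are equal. Hspa8 keeps close to the line, while Hspe1 and Hspd1 scatter widely.

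The tables also give the rest of the 3′ UTR, the part beyond its first bases, which was described without a test. In the mm9 annotation that comes with the files it runs over 306 bases in Hsp90aa1 (chromosome 12, 111929246 to 111934605, minus strand), 4007 in Dnaja1 (chromosome 4, 40669501 to 40684184, plus strand) and 886 in Dnajb1 (chromosome 8, 86132074 to 86135802, plus strand). Hsp90ab1 (chromosome 17, 45704727 to 45710210, minus strand) has only 39 bases of it and Hspe1 (chromosome 1, 55144992 to 55148161, plus strand) none, and both were listed at 0 in every library. Hspd1 (chromosome 1, 55134678 to 55144776, minus strand) has 256 bases and starts 215 bases from Hspe1. Hsph1 (chromosome 5, 150416862 to 150438890, minus strand) has 223 to 2555 bases by model and Hspa4 (chromosome 11, 53073316 to 53113981, minus strand) 526 to 1600. In Hspa8 (chromosome 9, 40609356 to 40613283, plus strand) 55.7% of the 1449 bases are coding exon in another model of the gene, so this part of Hspa8 is not UTR alone.

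On the scaling over 11 libraries, Hspa8 had 7.78 and 3.71 scaled FPKM in this part in fear conditioned dendrite immunoprecipitates, against 24.4 and 20.4 in home cage dendrite ones. In soma it had 8.07 and 9.98 in fear conditioned immunoprecipitates, against 50.2 and 43.3 in home cage ones. Once scaled, all 4 fear conditioned immunoprecipitates lay below all 4 home cage ones in this paired-end run. This pattern was named after its values were seen and was not shared by the coding part of Hspa8. As deposited the groups overlapped, with 9.11 FPKM in home cage soma immunoprecipitate 2, against 19.6 in fear conditioned soma immunoprecipitate 2. The share of all genes with such a pattern was not counted. The single-end run did not repeat the pattern. Hspa8 there had 30.2, 43.5, 20.4 and 38.4 in fear conditioned immunoprecipitates, against 338, 40.2, 34.2 and 54.1 in home cage ones. The fear conditioned dendrite and soma supernatants had 5.78 and 13.6, and the home cage dendrite supernatant 11.7. Dnajb1 had 48.3 and 3.92 in fear conditioned soma immunoprecipitates, against 0 and 7.54 in home cage soma ones, and 37.4 in the fear conditioned soma supernatant. Its single-end values were far lower, at 1.22 and 0.570 in fear conditioned soma immunoprecipitates, against 0 and 3.75 in home cage soma ones, and 0.801 in that supernatant. In dendrite immunoprecipitates Dnajb1 was low, with 0.540 and 0.0349 in fear conditioned, against 0.193 and 0 in home cage libraries. Hsp90aa1 was above 0 here in 3 of 8 immunoprecipitates, with 5.82 in fear conditioned dendrite 1, 11.97 in fear conditioned soma 2 and 21.2 in home cage soma 2, against 6.56 in the fear conditioned dendrite, 14.5 in the fear conditioned soma and 17.2 in the home cage dendrite supernatant. Dnaja1 stayed at or below 1.56 in immunoprecipitates and reached 8.10 in the fear conditioned dendrite supernatant; its gene shares 1450 bases with Smu1 on the opposite strand, and the labels do not state whether counting used strand.

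**Figure D5:**
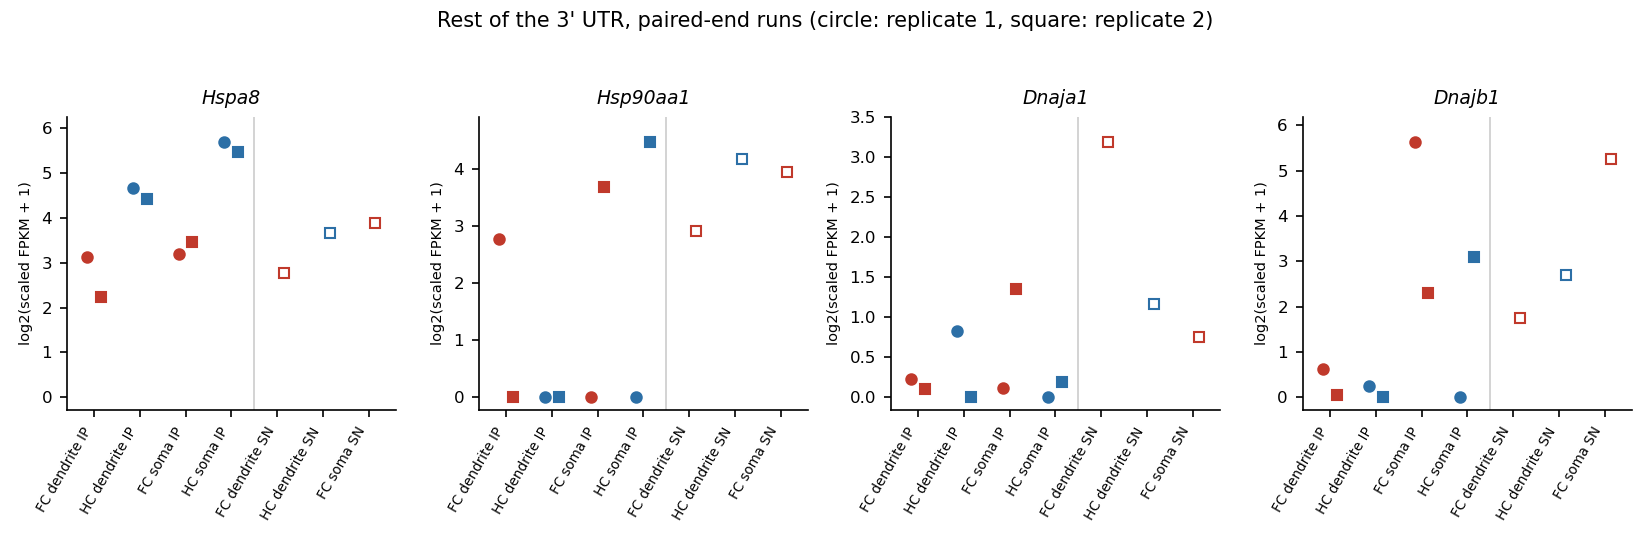
Rest of the 3′ UTR of 4 chaperones in all 11 libraries. The vertical axis is log2(scaled FPKM + 1), scaled over 11 libraries, with its own range in each panel; each symbol is 1 library of the paired-end runs, filled for immunoprecipitates (IP) and open for supernatants (SN), red for fear conditioned (FC) and blue for home cage (HC). Hspa8 is lower in all 4 fear conditioned than in all 4 home cage immunoprecipitates in these runs once scaled, but not as deposited or in the single-end runs.

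The wider chaperone network was described from a list of 66 other chaperones, co-chaperones and heat shock factors, of which 26 were tested in the immunoprecipitates. None passed in any comparison. After fear conditioning 11 were positive and 15 negative in dendrite, with a median log2 difference of -0.40, and 20 were positive and 6 negative in soma, with a median of 0.52, the same to that precision as the median of all genes there. The 5 with the highest mean level rested on few libraries. Tcp1, a subunit of the cytosolic folding chamber TRiC, had 9.47 and 2.54 scaled FPKM in fear conditioned dendrites, against 0.795 and 124 in home cage dendrites. In soma Tcp1 had 32.6 and 12.2 in fear conditioned and 2.38 and 43.6 in home cage immunoprecipitates. Dnajc5, a J-domain protein of synaptic vesicles, had 0.686 and 3.30 in fear conditioned dendrites, against 0.573 and 81.0 in home cage dendrites. Dnajb6 had 0.954 and 0.0320 there, against 0.329 and 72.2. Cct6a, another TRiC subunit, had 2.73 and 1.501 in fear conditioned dendrites, against 16.4 and 30.9 in home cage dendrites, and Pfdn5, a prefoldin subunit, 0.218 and 2.02, against 44.5 and 0.196. Home cage dendrite 2 gave the highest value of 4 of these 5 genes, which their choice by mean level favours. It also gave the highest value of Hsph1, Hspa4 and Hsp90aa1 among the members.

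The genes most like the members were ranked by Pearson's r with the mean log2(scaled FPKM + 1) of the 9 members over 8 immunoprecipitates, among 402 genes with a mean of at least 10. They were Hnrnpa3 (r = 0.942), Trim44 (0.880), Vamp2 (0.840), Mrpl30 (0.812) and Ywhae (0.798). The points share libraries and scaling, so these values are a description. Among the members themselves, r with that mean, which includes the member, was highest for Hsp90aa1 at 0.833 and Hspa4 at 0.802 and lowest for Hspa8 at 0.110 and Hspe1 at 0.0866.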

How the data were processed

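RNA of tagged ribosomes and supernatants was amplified with the Nugen Ovation kit, treated with a single-strand nuclease and made into libraries, per the labels' protocols, without molecular identifiers, so depth does not count molecules. The authors deposited FPKM for 29848 gene symbols in a paired-end and a single-end table, per the file headers; CASAVA 1.9, STAR 2.1.1d, Cufflinks 2.0.2 and build mm9 are named in the submitters' processing notes. Any scaling by the authors between libraries is not stated. The paired-end table was used for the tests.

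Libraries were divided by the median ratio over 794 genes above 0.001 FPKM in all 8 immunoprecipitates, or 703 genes in all 11 libraries, a floor set after values near 0 were seen. limma 3.58.1 in R 4.3.3 (trended moderation, two-sided, Benjamini-Hochberg over all genes, threshold 0.05) was fitted to log2(scaled FPKM + 1) of genes with a mean of at least 1, with 4 and 6 residual degrees of freedom, and tested on simulated data. All 9 members are named; of 66 other chaperones the 5 of highest mean are. Members and lists were chosen with earlier results of these data known. With 2 libraries a group, a permutation test cannot go below 0.333. RefSeq names pseudogenes of Hspe1 (7), Hspd1 (5) and Dnaja1 (1), whose reads the counting could split. Alternatives were pseudocounts of 0.1 and 5, no minimum and one of 5, FPKM as deposited, other scalings, the single-end table, replicate blocks, robust moderation and leaving out each library. Python 3.11.15 was used for annotation and figures.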

Additional observations from a re-analysis of the deposited data

Results flagged for a closer look

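Over both behaviours each place had 4 immunoprecipitates, and 18 sets of 4 (9 members in dendrite and soma) were looked at for a single library far from the other 3 by Dixon's criterion on log2(scaled FPKM + 1); chance gives about 0.9 such sets. In 2 sets 1 library stood apart; without the log the number was 4. Hsph1 was at 16.4 scaled FPKM in home cage dendrite immunoprecipitate 2, with a gap to the next library of 0.883 of the whole range on that log2 scale. Hspe1 was at 3.25 in fear conditioned soma immunoprecipitate 2, with a gap of 0.867 of the range on that scale. In the single-end run Hsph1 was at 11.2 in that dendrite library, below 24.8 in fear conditioned dendrite immunoprecipitate 1. Hspe1 was at 1.501 in that soma library in the single-end run, below 8.34 in fear conditioned soma immunoprecipitate 1.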

How the results depend on the processing

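No member passed the adjusted threshold under any of the 436 alternatives or 414 fits without 1 library; the smallest adjusted p was 0.129, for Dnaja1 in soma. Signs were turned in 28 alternatives. For the fear conditioning effect in soma these were Hspd1 with a pseudocount of 0.1 (0.24), as deposited (0.55), in the single-end table (0.53) and scaled over genes above 0.5 FPKM, a floor chosen after seeing the data (0.24), and Hspa8 as deposited (1.40) and with that scaling (0.78). In the single-end table the effect in dendrite turned for Hsph1 (1.58), as did its difference of effects (0.40); that of Hspd1 turned with a pseudocount of 5 (0.025). Dendrite against soma turned for Hspd1 with a pseudocount of 5 (-0.13) and with the 0.5 FPKM scaling (-0.0329), for Hspa8 and Hspa4 as deposited (0.53 and 0.32) and single-end (0.60 and 0.95), and for Hspe1 single-end (-0.32). Immunoprecipitate against supernatant in soma turned as deposited for Hsp90aa1 (0.38), Hsp90ab1 (0.21) and Dnaja1 (0.58), for Dnaja1 with a pseudocount of 5 (0.12), single-end for Hspa8 (-0.67), Hspa4 (-0.80) and Hspd1 (-0.26), and with the 0.5 FPKM scaling for Hspa8 (-0.11); in dendrite it turned for Hspe1 single-end (0.48) and Hspa8 with that scaling (-0.27). The cause of these turns was not tested.

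Without 1 library, 27 signs turned. Dendrite against soma then ranged from -1.10 to 0.19 for Dnaja1, -0.79 to 0.41 for Hspa4, -1.20 to 1.68 for Hspd1, -0.28 to 0.55 for Hspe1 and -0.11 to 1.53 for Hsph1. The difference of effects ranged from -3.69 to 1.95 for Hspd1 and -0.62 to 1.02 for Hspe1, the effect in dendrite from -0.35 to 1.58 for Dnaja1, and that in soma from -1.12 to 0.44 for Hspa8 and -3.49 to 2.14 for Hspd1. Immunoprecipitate against supernatant ranged in dendrite from -1.67 to 0.51 for Dnaja1, -0.39 to 1.06 for Hspa8 and -0.088 to 1.14 for Hsph1, and in soma from -1.16 to 0.16 for Dnaja1, -0.76 to 0.065 for Hsp90ab1 and -0.095 to 0.87 for Hspe1.

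Counts over all genes moved in few settings. The fear conditioning effect in soma was called for 1 gene as deposited and for 0 to 170 without 1 library. Dendrite against soma was called for 1 gene as deposited, 1 single-end and 1 with equally numbered libraries of a behaviour as a replicate block. Immunoprecipitate against supernatant in dendrite was called for 1 gene with a pseudocount of 0.1, 1 with a pseudocount of 5, 402 with no minimum, 10 single-end and 0 to 2 without 1 library, and in soma for 922 with no minimum and 10 single-end. Whether libraries of equal replicate number share mice is not stated in the labels. Their deviations from the group means correlated by -0.02 to 0.05 over genes, which with 2 libraries a group cannot decide it. With the number as a replicate block immunoprecipitate against supernatant in dendrite was called for 1 gene, and Dnaja1 changed sign in dendrite (0.0031) and soma (0.46). The home cage soma levels of Hsph1, Dnaja1, Dnajb1 and Hspe1 rest on 0 to about 1.4 paired-end fragments. Levels in the rest of the 3′ UTR stand in the report, without a fit.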

Other observations

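Hspd1 and Hspe1 start 215 bases apart and encode partners of 1 complex. In the paired-end run their listed levels did not keep a fixed ratio. Hspe1 was listed at 0 in home cage soma immunoprecipitate 2, where Hspd1 had its highest level of 43.4 scaled FPKM, and in home cage dendrite immunoprecipitate 2, where Hspd1 had 10.01. In the fear conditioned immunoprecipitates of that run Hspe1 was above Hspd1 in soma 2 only, at 3.25 against 1.54. The single-end run had Hspe1 at 4.12 and Hspd1 at 3.31 in home cage soma 2. In its fear conditioned dendrites Hspe1 had 13.5 and 2.36, against 11.7 and 2.42 for Hspd1. In its fear conditioned soma Hspe1 had 8.34 and 1.501, against 8.46 and 0.517. Home cage dendrites there had Hspe1 at 0 in both, against 28.6 and 1.92 for Hspd1. Single-end FPKM of Hspe1 were 0.288 to 129 times the paired-end ones, so these values cannot settle the ratio.

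Hsf1, which encodes heat shock factor 1, had 0.385 and 0.202 scaled FPKM in fear conditioned dendrite immunoprecipitates, against 0 and 1.93 in home cage dendrite ones. It had 0.158 and 0.344 in fear conditioned soma immunoprecipitates, against 3.16 and 10.9 in home cage soma ones, without overlap. The log2 difference was -2.49 (SE 1.12, limma unadjusted p = 0.0446, adjusted p = 0.551). Among all genes tested there, 7.56% were lower without overlap and 8.18% had an unadjusted p under 0.05. Hsf1 reached the minimum mean of 1 only through home cage soma, which favours this sign, so its p is no evidence of a change. It was named after its values were seen.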
